A study of Homo sapiens with 4 samples.

Results

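Receptor-type protein tyrosine phosphatases were followed in the human bladder cancer line UM-UC-3 with and without an introduced gene that the series title names a metastasis suppressor. The genes were PTPRD, PTPRF, PTPRS, PTPRK, PTPRM, PTPRU, PTPRG, PTPRJ, PTPRA and PTPRE, and every probe set that the platform annotation assigns to 1 of these symbols and to no other gene was taken. Of the 10 genes, 9 had such probe sets, 27 in all, out of 41091 probe sets that name 1 gene and 19775 genes on the array; PTPRJ is not analysed here. PTPRD was chosen by its difference between the lines in these same arrays, where it is among the genes with the largest fall, and its relatives were added by family. The values of all 9 genes in the comparison of the lines are therefore a description, with no test.

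The tested line carried GFP fused to RhoGDI2, the product of ARHGDIB, and the control line carried GFP alone; both were stably transfected and sorted by fluorescence for the introduced protein, and the labels of the GFP line add puromycin selection through a cotransfected plasmid. Each line had 2 arrays, A and B, from preparations made at different times, and the labels pair A with A and B with B. Cells were harvested in log phase, and 6 µg of total RNA was labelled for each Affymetrix HG-U133 Plus 2.0 array. The labels do not say whether a line was 1 clone or a pool, and effects of the introduced gene and of the making of each line cannot be told apart. For the GFP-RhoGDI2 samples the free-text description speaks of the control transfection, while every other label names the fusion. The main ARHGDIB probe set read 11.94 and 11.58 on the GFP-RhoGDI2 arrays, against 6.51 and 6.27 on the GFP arrays.

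Receptor tyrosine phosphatases cross the membrane once and remove phosphate from tyrosines, opposing tyrosine kinases. PTPRD, PTPRF (also called LAR) and PTPRS form the LAR type, with immunoglobulin and fibronectin domains outside the cell; they bind synaptic adhesion proteins and heparan sulphate proteoglycans, and inside the cell liprins and TRIO. PTPRK, PTPRM and PTPRU carry a MAM domain and gather at cell contacts, where PTPRK and PTPRM bind their own kind on the next cell. PTPRG has an extracellular domain like carbonic anhydrase, and PTPRA and PTPRE have short extracellular parts and activate Src family kinases. PTPRD is known as a gene often lost in human cancers.

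The RefSeq promoters of the LAR type genes are shown because these paralogues had values in opposite directions: PTPRD lower, PTPRF and PTPRS higher on their leading probe sets. Each line gives, on GRCh38.p14, the 250 bases before the start listed first for the gene, 5′ to 3′ on its own strand, with capitals marking the motifs GGGCGG (GC box), CACGTG (E-box), CAGGTG (the E-box of Snail factors) and TGACGTCA (CRE), each searched on both strands. The table matched all 9 genes by symbol, with 16 starts, and all 16 windows were searched.
PTPRD, chr9:10613003-10613252, minus strand: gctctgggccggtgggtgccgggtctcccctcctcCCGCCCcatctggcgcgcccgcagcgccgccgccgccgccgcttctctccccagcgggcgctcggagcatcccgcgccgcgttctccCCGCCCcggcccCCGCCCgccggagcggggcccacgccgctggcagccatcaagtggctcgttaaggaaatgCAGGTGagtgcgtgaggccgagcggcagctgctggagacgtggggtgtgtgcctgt
PTPRF, chr1:43530633-43530882, plus strand: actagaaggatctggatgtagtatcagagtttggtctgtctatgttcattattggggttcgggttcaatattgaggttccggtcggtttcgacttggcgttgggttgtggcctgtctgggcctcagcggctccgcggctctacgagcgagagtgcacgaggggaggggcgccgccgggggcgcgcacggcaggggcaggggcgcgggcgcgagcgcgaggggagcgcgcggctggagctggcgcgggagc
PTPRS, chr19:5340813-5341062, minus strand: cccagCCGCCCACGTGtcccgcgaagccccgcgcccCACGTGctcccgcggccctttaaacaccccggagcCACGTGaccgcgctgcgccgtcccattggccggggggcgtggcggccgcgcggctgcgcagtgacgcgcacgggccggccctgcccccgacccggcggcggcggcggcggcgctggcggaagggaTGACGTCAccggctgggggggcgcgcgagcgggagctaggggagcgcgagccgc

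The PTPRD window held 3 GC boxes and 1 Snail-type E-box and was 76% G or C; RefSeq lists 2 further PTPRD starts, whose windows were 47.2% and 39.6% G or C, with 1 GC box in the first and no match in the second. The PTPRF window held none of the motifs. The PTPRS window held 3 CACGTG E-boxes, 1 CRE and 1 GC box, which shares a base with the first E-box. The RefSeq table gave 35116 windows of the same length, with a median of 58% G or C. Of these, 42.6% held GGGCGG, 6.34% CACGTG, 17.5% CAGGTG and 1.65% TGACGTCA. These are matches of letters; binding was not measured, and which start the cells used is not given by these arrays.

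PTPRD had the largest difference among the 9 genes, and it was lower in GFP-RhoGDI2 cells. Its leading probe set, taken for each gene as the one of highest mean, gave 5.74 and 5.92 on the GFP-RhoGDI2 arrays A and B, against 8.77 and 8.67 on the GFP arrays (log2 RMA expression). The groups lay far apart, with both GFP-RhoGDI2 arrays below both GFP arrays. The difference, GFP-RhoGDI2 minus GFP, was -3.04 in preparation A and -2.75 in preparation B, on average -2.89 (SE 0.109 from the fit over all probe sets), or 7.44-fold lower. The means were 5.83 ± 0.13 in GFP-RhoGDI2 cells and 8.72 ± 0.07 in GFP cells (SD, n = 2 each). In a bulk RNA sample, fewer cells with the transcript and less transcript per cell cannot be told apart.

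Further PTPRD probe sets that passed the filter had the same direction. The second read 5.09 and 5.03 on the GFP-RhoGDI2 arrays, against 7.82 and 8.08 on the GFP arrays, a difference of -2.89. The third read 4.63 and 4.64 on the GFP-RhoGDI2 arrays, against 7.10 and 7.44 on the GFP arrays, a difference of -2.64. Its GFP-RhoGDI2 values lie at the filter level of 4.637, the median of the mean values of all probe sets, so it passed the filter through the GFP arrays; no detection calls were used, and the size of its difference is uncertain. The last PTPRD probe set read 2.96 and 2.72 in GFP-RhoGDI2 cells, against 3.13 and 3.21 in GFP cells, at the low end of the scale in both lines, and was below the filter.

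**Figure D1:**
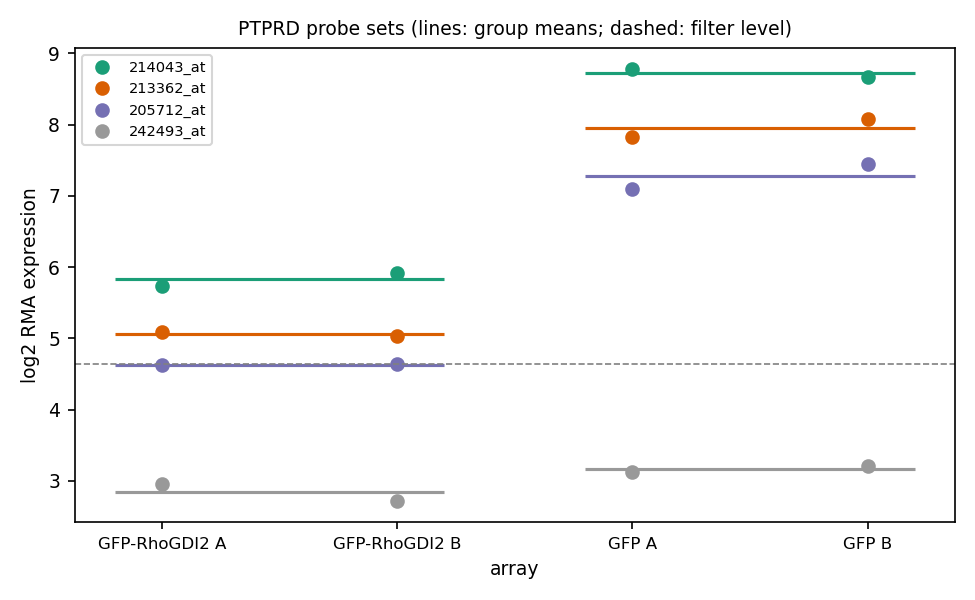
Log2 RMA expression (y axis) of the 4 PTPRD probe sets on the 4 arrays (x axis); horizontal lines are group means (n = 2) and the dashed line is the filter level of 4.637. Means of the upper 3 probe sets are 5.83, 5.06 and 4.63 in GFP-RhoGDI2 cells, against 8.72, 7.95 and 7.27 in GFP cells, and the last stays near 3 in both.

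The other LAR type genes were higher on their leading probe sets. PTPRF, which encodes LAR, read 10.50 and 10.61 on the GFP-RhoGDI2 arrays, against 10.03 and 9.998 on the GFP arrays, a difference of 0.55 (SE 0.0962) or 1.46-fold. PTPRS, which encodes the receptor phosphatase sigma that binds chondroitin and heparan sulphate, read 9.52 and 9.70 in GFP-RhoGDI2 cells, against 8.93 and 8.95 in GFP cells, a difference of 0.67 (SE 0.0974) or 1.59-fold. For both genes the lines did not overlap and the difference was of like size in each preparation, 0.48 and 0.62 for PTPRF and 0.59 and 0.75 for PTPRS.

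The probe sets of PTPRF and PTPRS did not all share this. For PTPRF, 2 further probe sets differed by 0.28 and 0.51, while the last read 5.48 and 5.63 in GFP-RhoGDI2 cells, against 5.91 and 5.65 in GFP cells, a difference of -0.22. That last one is the only PTPRF probe set whose identifier does not end in _s_at, the class that can match several transcripts. For PTPRS the second probe set differed by 0.15, and the others, below the filter, by 0.10 and -0.01. The size for PTPRS thus rests on 1 probe set of 4, and with the mean of all its probe sets it was 0.23 and not called. PTPRF was at 0.28 with probe set means, and its call was lost with no filter.

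PTPRK and PTPRM, of the MAM type, differed more between preparations than between lines. PTPRK read 6.76 and 7.38 on the GFP-RhoGDI2 arrays, against 6.37 and 7.001 on the GFP arrays. The lines overlapped, yet within each preparation the GFP-RhoGDI2 array was higher by nearly the same amount, 0.40 in A and 0.38 in B (SE 0.0918). PTPRM read 8.36 and 8.79 in GFP-RhoGDI2 cells, against 8.14 and 8.49 in GFP cells, with differences of 0.22 and 0.30 (SE 0.0932), and its lines overlapped too. A second PTPRM probe set differed by 0.14, and a weak PTPRK probe set below the filter by 0.15. PTPRU, whose product binds beta-catenin, read 6.32 and 6.45 in GFP-RhoGDI2 cells, against 6.25 and 6.34 in GFP cells, a difference of 0.09 with overlapping lines. PTPRK and PTPRM depend on the pairing: with 1 array left out, and so no block, the PTPRK difference ran from 0.07 to 0.71 and that of PTPRM from 0.05 to 0.47.

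PTPRG, PTPRA and PTPRE showed small differences. PTPRG read 7.75 and 7.82 in GFP-RhoGDI2 cells, against 7.79 and 7.91 in GFP cells, a difference of -0.06, and its other probe sets above the filter differed by -0.18 and -0.23 without overlap of the lines. A PTPRG probe set below the filter differed by -0.18, with opposite signs in the preparations. PTPRA, an activator of Src and Fyn, read 8.27 and 8.17 in GFP-RhoGDI2 cells, against 8.05 and 8.11 in GFP cells, a difference of 0.14, and its second probe set differed by 0.18. A weaker PTPRA probe set read 5.02 and 4.81 in GFP-RhoGDI2 cells, against 4.62 and 4.47 in GFP cells, and passed the filter only through the GFP-RhoGDI2 arrays. PTPRE, the closest relative of PTPRA, read 5.52 and 5.41 in GFP-RhoGDI2 cells, against 5.64 and 5.34 in GFP cells, differing by -0.12 in preparation A and 0.07 in B. Below the filter, one PTPRE probe set was at 3.93 and 3.98 in GFP-RhoGDI2 cells and 3.62 and 3.41 in GFP cells, and another differed by 0.06.

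**Figure D2:**
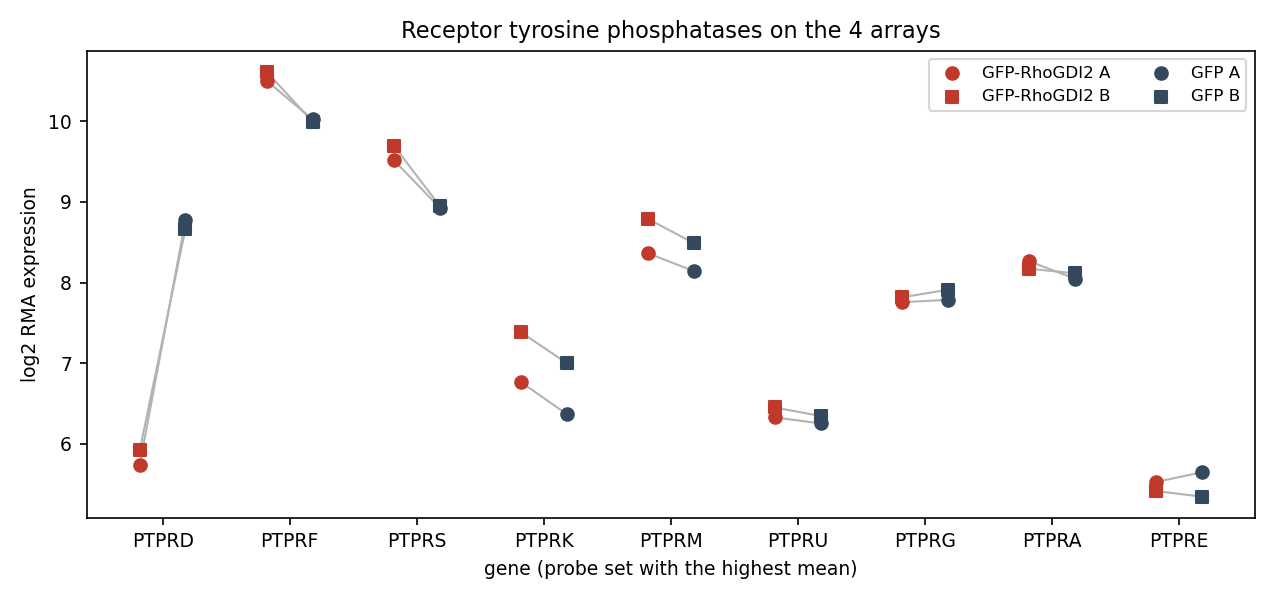
Log2 RMA expression (y axis) of the leading probe set of each of the 9 genes (x axis), GFP-RhoGDI2 arrays in red to the left and GFP arrays in dark blue to the right, circles for preparation A and squares for B, with lines joining arrays of 1 preparation. PTPRD drops to 5.74 and 5.92 in GFP-RhoGDI2 cells, against 8.77 and 8.67 in GFP cells, while the other 8 genes differ by 0.67 or less; heights are not comparable between genes.

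Of the 27 probe sets, 20 passed the filter, and each of the 9 genes kept at least 1. In the limma fit with preparation as a block (adjusted p under 0.05 over all probe sets), 3 of these 20 were called higher and 3 lower, against 7.64% called among all probe sets tested. By gene, 2 of the 9 were called higher, PTPRF and PTPRS, against 4.83% of all 12123 genes tested, and 1 lower, PTPRD, against 3.35%, where 8.17% were called in either direction. The arrays of the lines did not overlap for 4 of the 9 genes, against 54.5% of all genes. Since the genes were chosen with this comparison known, nothing is read from these shares. The median difference was 0.14 over the 9 genes, beside -0.01 over all genes tested. With any 1 array left out and no block, PTPRD alone was called. PTPRD was also the only call without probe sets whose identifiers end in _s_at or _x_at, where 7 genes were tested. In that setting 8.43% of all genes were called, and PTPRS and PTPRU had no tested probe set. Because PTPRD was chosen for its large fall in these same arrays, its calls across settings lend it no support.

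**Figure D3:**
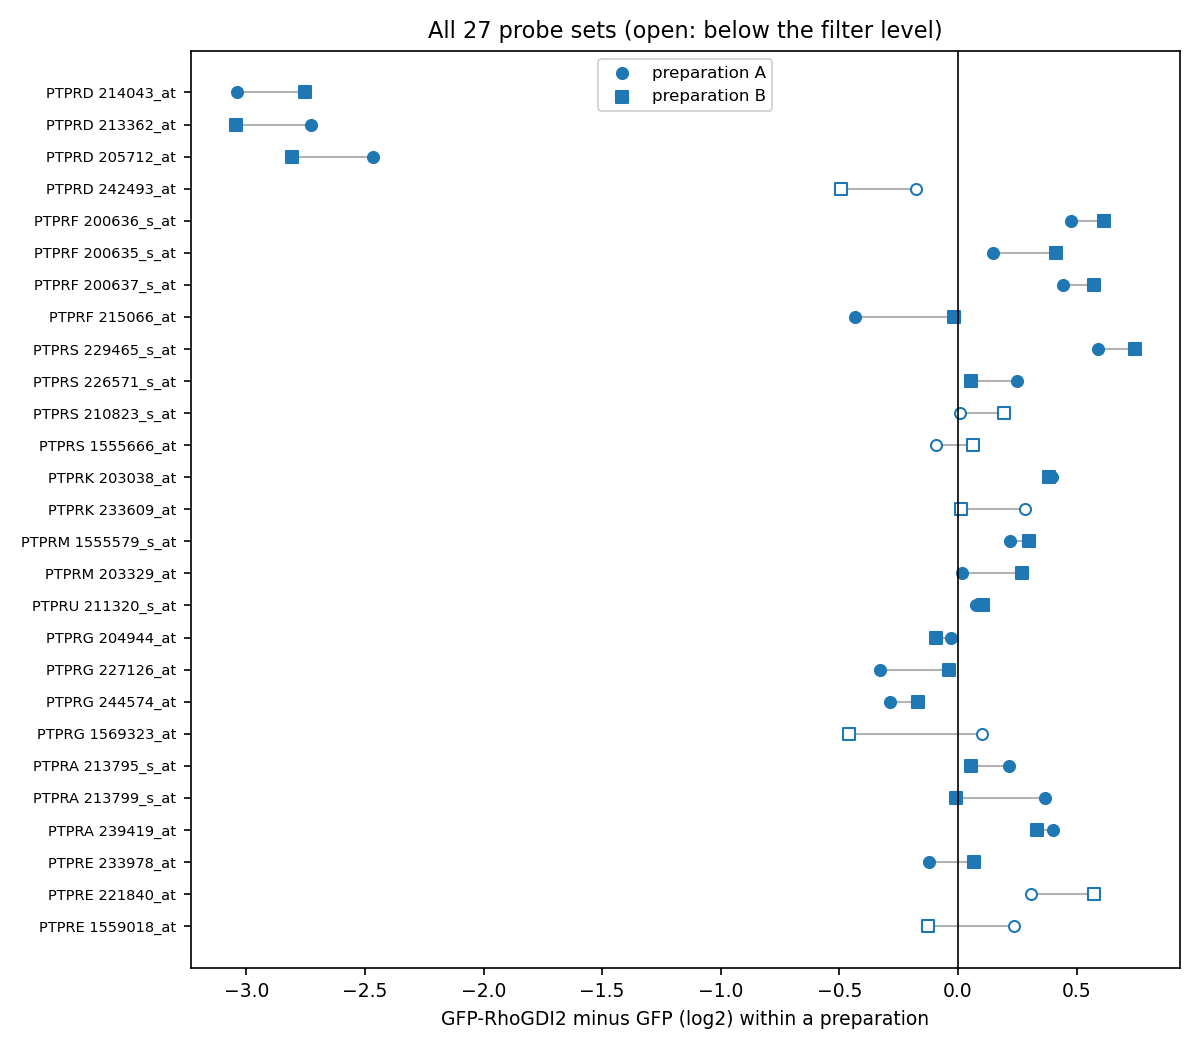
GFP-RhoGDI2 minus GFP (x axis, log2) within preparation A (circles) and B (squares) for all 27 probe sets of the 9 genes (y axis); open symbols mark the 7 probe sets below the filter level. The 3 PTPRD probe sets that passed the filter lie between -3.04 and -2.47, the third of them at an uncertain size, and the others between -0.49 and 0.75.

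The difference between preparations was not used in choosing the genes and could be tested. In the same limma fit, B minus A was 0.63 for PTPRK (SE 0.0918, unadjusted p = 6.02e-04, adjusted p = 0.369) and 0.39 for PTPRM (SE 0.0932, unadjusted p = 0.00666, adjusted p = 0.376). Within the lines, PTPRK was higher in B by 0.62 in GFP-RhoGDI2 cells and by 0.63 in GFP cells, and PTPRM by 0.43 in GFP-RhoGDI2 cells and 0.35 in GFP cells. At adjusted p under 0.05 limma called 0 of the 9 genes, beside 0.00% of all genes; at an unadjusted p under 0.05 it called these 2 of 9, beside 10% of all genes. With an intensity trend in the moderation, PTPRK and PTPRM were both called, but the share of all genes called for preparation in that setting was not counted. That setting also called more genes between the lines, 2879 of 12123 rather than 991, so nothing is read from these 2 calls. PTPRD differed between preparations by 0.04 (SE 0.109).

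**Figure D4:**
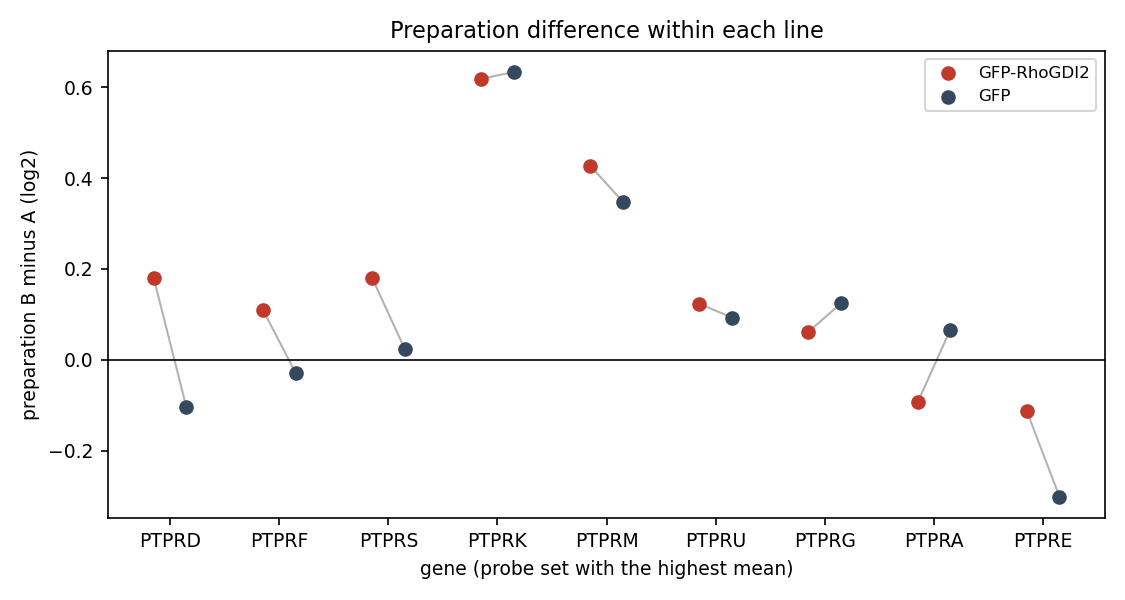
Preparation B minus A (y axis, log2) of the leading probe set of each gene (x axis), in GFP-RhoGDI2 cells (red, left) and GFP cells (dark blue, right). PTPRK lies at 0.62 and 0.63 and PTPRM at 0.43 and 0.35, and the remaining genes lie between -0.30 and 0.18.

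Among genes whose products bind LAR type phosphatases from outside the cell, limma called IL1RAPL1 higher and GPC4 lower, and the other 5 of 7 tested did not pass the threshold. Both called genes lay below the filter level in one line and passed the filter through the other, so their values are given without a fold or a p for the call. IL1RAPL1, an interleukin-1 receptor relative that binds PTPRD across the synapse, read 6.85 and 7.58 on the GFP-RhoGDI2 arrays, against 4.23 and 4.05 on the GFP arrays. Its second probe set read 6.91 and 6.94 on the GFP-RhoGDI2 arrays, against 4.63 and 4.23 on the GFP arrays, and on both probe sets the lines lay far apart. GPC4, a glypican that binds PTPRS, read 4.51 and 4.29 in GFP-RhoGDI2 cells, against 5.48 and 5.87 in GFP cells. With array B of GFP-RhoGDI2 left out, and so no block, GPC4 was no longer called.

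Of this list of 15 genes, 8 lay below the filter with means of 3.01 to 4.55, among them all 6 SLITRK genes, which encode synaptic ligands of PTPRD and PTPRS. LRFN5, another synaptic ligand of the LAR type, had the highest mean of these 8 and is named because of its values, which were 5.07 and 5.14 on the GFP-RhoGDI2 arrays, against 3.97 and 4.02 on the GFP arrays.

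Inside the cell, 0 of 7 tested partners of LAR type phosphatases passed the limma threshold for their difference between the lines, which had a median of -0.08. TRIO, first found through its binding to LAR, read 9.82 and 10.07 in GFP-RhoGDI2 cells, against 9.50 and 9.55 in GFP cells, a difference of 0.42 (SE 0.101, limma adjusted p = 0.0654); it is named because of its values. Over the alternatives its adjusted p ran from 6.79e-04 with an intensity trend to 0.45 with the mean of probe sets, where the difference was 0.10. The liprin gene PPFIA1 read 10.18 and 10.20 in GFP-RhoGDI2 cells, against 10.22 and 10.33 in GFP cells. CASK, a scaffold kinase gene, differed by 0.11, but by 0.68 on the probe set that represents it when _s_at and _x_at probe sets are left out (limma adjusted p = 0.0145). In that same setting the liprin-beta gene PPFIBP1 was called lower, with a difference of -0.54 (limma adjusted p = 0.0259), beside -0.12 on its leading probe set. PPFIBP2, a further liprin-beta gene, differed by -0.32 and was called lower with probe set means (limma adjusted p = 0.0194), where CASK was called higher too (0.27, limma adjusted p = 0.0397).

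On the joint list of ligands of PTPRG and of its relative PTPRZ1, limma called 1 of 3 tested genes higher and 1 lower. The contactin genes CNTN3, CNTN4, CNTN5 and CNTN6 of this list were below the filter, with means of 2.76 to 3.48. The tested genes were CNTN1, PTN and MDK. CNTN1, a contactin that binds PTPRZ1, read 7.83 and 7.74 on the GFP-RhoGDI2 arrays, against 6.33 and 6.35 on the GFP arrays, 2.72-fold higher (limma adjusted p = 0.00169). PTN, the growth factor pleiotrophin and a ligand of PTPRZ1, read 4.96 and 4.82 in GFP-RhoGDI2 cells, against 6.00 and 5.95 in GFP cells, 2.12-fold lower (limma adjusted p = 0.00403). All 3 tested PTN probe sets end in _x_at, the class most open to cross-hybridization, so PTN has no value without them. Its probe set below the filter differed by 0.12, and the mean of all its probe sets by -0.76. PTPRZ1 itself read 3.01 and 2.81 in GFP-RhoGDI2 cells, against 2.72 and 3.10 in GFP cells, below the filter. With the mean of its probe sets CNTN1 was higher by 0.91 rather than 1.45.

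Of 8 tested kinases and STAT3 that are known as substrates of receptor phosphatases, FYN was called higher and 0 lower, with a list median of 0.14. FYN, a Src family kinase activated by PTPRA, read 7.47 and 7.44 on the GFP-RhoGDI2 arrays, against 6.27 and 6.34 on the GFP arrays, 2.22-fold higher (limma adjusted p = 0.00337). Of its 5 probe sets 1 went the other way. The second was higher by 0.50 (limma adjusted p = 0.0352), and those below the filter were higher by 0.22 and 0.49. The third differed by -0.15 with overlapping lines (limma adjusted p = 0.373). It is the value left when probe sets ending in _s_at or _x_at are dropped. With the mean of its probe sets FYN was higher by 0.44. EGFR and MET, receptor kinases, differed by -0.20 and 0.15 and were not called. With the mean of probe sets EGFR differed by 0.03 and MET by 0.29, where MET was called higher (limma adjusted p = 0.0408). EGFR differed by -0.05 without _s_at and _x_at probe sets, and was called lower with an intensity trend (limma adjusted p = 0.0447). Of 4 tested cadherins and catenins, CDH2, which encodes N-cadherin, was called higher on 1 of its 2 probe sets. The second differed by 0.49 and was not called (limma adjusted p = 0.0644), with GFP values of 4.61 and 4.30, under the filter level. The leading one read 6.04 and 6.12 in GFP-RhoGDI2 cells against 5.46 and 5.34 in GFP cells, a difference of 0.68 (limma adjusted p = 0.0201). That call was lost without GFP B, without GFP-RhoGDI2 A and without GFP-RhoGDI2 B, each without the block (limma adjusted p = 0.0643, 0.0776 and 0.113).

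The remaining phosphatase genes showed no calls in limma. Of 8 further receptor phosphatases on the array 3 passed the filter, PTPRH, PTPRN2 and PTPRO, with differences of 0.12, 0.01 and -0.04 and overlapping lines. The other 5, among them PTPRC, which marks blood cells, had means of 2.91 to 3.55. Of 17 non-receptor phosphatases 12 were tested and 0 were called, with differences from -0.20 to 0.26. Over all lists of ligands, partners, substrates and other phosphatases, 4 of 44 tested genes were called higher and 2 lower, IL1RAPL1 and GPC4 included, beside the 4.83% and 3.35% of all genes given above, with a median of -0.02. Of the 7 lists 4 held a called gene, and whether a list differs from other genes was not tested.

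**Figure D5:**
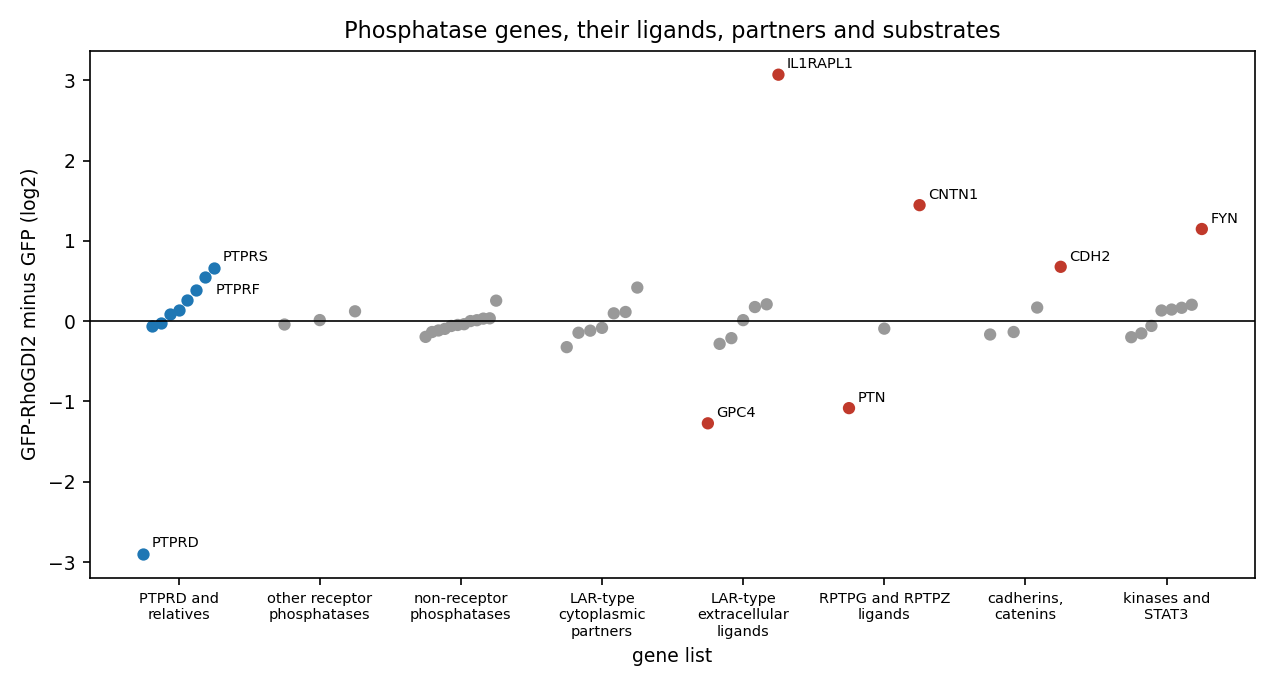
GFP-RhoGDI2 minus GFP (y axis, log2) for PTPRD and its relatives (blue) and for each tested gene of the 7 lists (x axis), red where limma called it and grey where it did not; named blue points are the called ones. IL1RAPL1 is drawn at 3.07, an uncertain size, and PTPRD at -2.89, and all 12 non-receptor phosphatases lie between -0.20 and 0.26.

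Of genes next to PTPRD on chromosome 9, KDM4C, ZDHHC21 and SNAPC3 were higher in GFP-RhoGDI2 cells and the others did not pass the threshold. Of the 5 tested genes nearest on each side, in the order of RefSeq positions, 3 were called higher and 0 lower, beside 4.83% and 3.35% of all genes. Their median difference was 0.29, beside -0.01 over all genes; whether the neighbours differ from other genes was not tested, and TTC39B was the one with a negative difference, -0.07. KDM4C was higher by 0.66, ZDHHC21 by 0.53 and SNAPC3 by 0.76 (limma adjusted p = 0.0182, 0.0455 and 0.0158). The tested genes on either side of PTPRD, DMAC1 and MPDZ, differed by 0.14 and 0.07.

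The genes whose 4 array values lay closest to those of PTPRD, each centred on its own mean, were VCAN, HAPLN1, PCDH19, ESM1 and ZNF804A, out of 12122 tested genes. The root mean square distance over the 4 arrays was 0.13 for VCAN, a matrix proteoglycan gene, 0.23 for HAPLN1, a link protein gene, and 0.42 to 0.58 for the others. The distances of the other phosphatases to PTPRD ran from 1.42 for PTPRG to 1.78 for PTPRS. VCAN read 3.64 and 3.96 on the GFP-RhoGDI2 arrays, against 6.89 and 6.93 on the GFP arrays, a difference of -3.11 whose size is uncertain because the lower values lie under the filter level, and HAPLN1 differed by -2.52. With 4 arrays in 2 groups, closeness here means a difference of like size.

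Markers of the labelled bladder origin were few: 2 of 9 measured urothelial genes, GATA3 and PPARG, had means above the filter level, and the uroplakin genes and KRT20 did not. PPARG was called higher, at 5.85 and 5.77 in GFP-RhoGDI2 cells, against 4.46 and 4.61 in GFP cells, where it lies below the filter level, and GATA3 differed by -0.20. The summed log2 level of the urothelial genes was 37.9 to 38.4 in GFP-RhoGDI2 cells, against 36.3 to 37.6 in GFP cells. Within this sum PPARG differed by 1.27, an uncertain size, and UPK1A, below the filter, by 0.65. The other measured genes of the list differed by -0.20 to -0.02, so the sum is not a shift of the whole list. Of 7 mesenchymal genes 4 were above the filter level, VIM among them, and 1, CDH2, was called higher. Their summed log2 level was 45.8 to 46.6 in GFP-RhoGDI2 cells, against 44.7 to 45.5 in GFP cells. Within this sum CDH2 differed by 0.68 and FN1 by 0.34. FN1 read 6.65 and 7.46 in GFP-RhoGDI2 cells, against 6.67 and 6.77 in GFP cells. VIM, DCN and COL1A1 differed by 0.18, 0.11 and 0.07, and COL1A2 and LUM by -0.03 and -0.20. This sum too is not a shift of the whole list. The epithelial genes KRT8, KRT18 and KRT7 were above the filter level, while CDH1 and EPCAM were not. Of the epithelial genes 0 were called higher and 2 lower, KRT8 and KRT18, with a summed log2 level of 37.0 to 37.7 in GFP-RhoGDI2 cells, against 39.4 to 39.5 in GFP cells. For neural genes, 3 of 4 were above the filter and 1, SNAP25, was called higher, by 0.83 with overlapping arrays, while GFAP differed by -0.23 and SYP by -0.11. The neural sums were 19.5 to 21.0 in GFP-RhoGDI2 cells, against 19.4 to 20.1 in GFP cells. Blood cell markers were below the filter in all 4 measured cases. The part of these marker differences in the values of the phosphatase genes was not tested. Array medians ran from 4.62 to 4.65, and the number of arrays limits the precision.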

How the data were processed

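Expression was measured on 4 arrays, 2 per line. The authors deposited log2 expression values per probe set; RMA, per the submitters' processing notes, was the tool. Its version and the set of arrays it was run on together are not stated there. The values were used as deposited. Of 54675 probe sets, 62 controls were left out; the platform annotation named 1 gene for 41091, several for 1801 and did not list 11721. Probe sets with a mean at or above the median of all means (4.637) were tested, 27307 in all, and a gene was represented by its tested probe set with the highest mean, 12123 genes.

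Differences are GFP-RhoGDI2 minus GFP from limma 3.58.1 in R 4.3.3 (lmFit and eBayes), with preparation as a block because the labels pair the preparations. The A minus B differences of the lines correlated at 0.264 over probe sets. The code was run on simulated normal values without a preparation effect, which checks the code and not the calls on these arrays. P-values were adjusted by Benjamini-Hochberg over all probe sets tested. The fit has 1 residual degree of freedom per probe set, and limma's prior contributes 4.71 more (prior SD 0.101), so standard errors come mainly from the pooled variance. The members, lists, rules and alternatives were chosen with earlier results of these data known. Named were the 9 genes, ARHGDIB, up to 4 called genes per list, the 5 genes closest to PTPRD in pattern and 5 tested neighbours on each side; TRIO, LRFN5, PTPRZ1, PPFIA1, PPFIBP1, PPFIBP2, CASK, EGFR, MET and the few tested receptor phosphatases and markers were named after their values were seen. Gene positions were used for order through RefSeq GRCh38.p14, where 12110 of the 12123 genes matched. Alternatives were an unblocked fit, leaving out each array, no filter or a stricter one, variance moderation with an intensity trend, quantile normalization, probe set means, no _s_at or _x_at probe sets and a fold rule. P-values rest on how much the difference between the lines varied between preparations A and B, with the variance pooled over probe sets. They do not cover variation between lines made independently.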

Additional observations from a re-analysis of the deposited data

How the results depend on the processing

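Without the preparation block 641 of 12123 genes were called rather than 991, and the blocked and unblocked fits called the same number of the 9 phosphatase genes, 3, and of the list genes, 6. Leaving out 1 array, without the block, gave 215 to 421 genes, and the 9 phosphatase genes then held 1 to 1 call, PTPRD, and the lists 4 to 6. The gene count was 1876 of 7442 above the upper quartile of means and 2879 of 12123 with an intensity trend. It was 2314 of 10947 with probe set means and 201 of 12123 with a difference of at least 1 on the log2 scale. Of the phosphatase genes, 1 of 7 tested was called without _s_at and _x_at probe sets, beside 8.43% of all genes, and 1 with the fold rule. With probe set means the 3 called were PTPRD, PTPRF and PTPRK, and with no filter PTPRF was lost. Above the upper quartile 4 of 6 tested were called, PTPRM being added, and with an intensity trend 4 of 9, PTPRK being added. The list genes called were 3 above the upper quartile, 12 with an intensity trend and 10 with probe set means; the upper quartile tests fewer genes, 23 against 44. The preparation difference called 2 phosphatase genes with an intensity trend, where the share of all genes was not counted, and 0 otherwise. It could not be fitted without the block or with an array left out. PTPRD was at -2.19 with probe set means, which take in its probe set near the low end, and ran from -2.98 to -2.80 with an array left out. PTPRF turned to -0.22 without _s_at and _x_at probe sets. For the rest the cause was not tested. With no detection calls, differences that involve values under the filter level are uncertain in size.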

Other observations

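TGACGTCA, the palindromic cyclic AMP response element, was found in the RefSeq promoter windows of PTPRS and PTPRU and in no other of the 16 windows of the 9 genes, against 1.65% of all windows. The PTPRS and PTPRU windows were 80.8% and 77.6% G or C, beside a median of 58% over all windows. The share of all windows is thus not one from windows of like G or C content. CACGTG was found in 1 of these 16 windows, that of PTPRS, against 6.34% of all windows. These are matches of letters, and PTPRU differed between the lines by 0.09 and PTPRS by 0.67.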
